A study of Mus musculus with 6 samples.

Results

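The 10 genes described here encode BMP and activin ligands (Bmp2, Bmp4, Bmp7, Inhba and Inhbb), secreted antagonists of these ligands (Fst and Grem1) and Id proteins, which are targets of BMP signaling (Id1, Id2 and Id3). They were chosen by name among the 22800 gene symbols of the data, and all 10 were present. Transcript levels were compared between low-passage (MOELOW) and high-passage (MOEHIGH) murine oviductal epithelial cells. The line was established from pooled oviducts of female outbred CD1 mice, 8 weeks of age, so every library came from 1 line. The medium given for the line held fetal bovine serum, epithelial growth factor, insulin, transferrin, selenite, gentamycin and estradiol. MOELOW was sequenced at passages 8, 9 and 10. MOEHIGH, obtained from MOELOW by continued passaging, was sequenced at passages 90, 103 and 113. Each of the 3 libraries of a group was 1 passage, so the p-values here rest on how far passages of a single line differ from each other. Values are FPKM, fragment counts scaled by the authors to transcript length and to the depth of the library, which can be set side by side between genes.

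BMPs and activins are secreted dimers of the transforming growth factor beta superfamily. They bind complexes of type I and type II receptor kinases, which phosphorylate Smad1, Smad5 and Smad9 for most BMPs and Smad2 and Smad3 for activins, and the phosphorylated Smads enter the nucleus with Smad4. Activins are built from the beta subunits of inhibin, which Inhba and Inhbb encode. Follistatin (Fst) binds activins with high affinity, and gremlin 1 (Grem1) binds BMPs. Id proteins are helix-loop-helix proteins without a DNA-binding region that hold E proteins, their basic helix-loop-helix partners, away from DNA. A further member of the superfamily, anti-Müllerian hormone, is known for causing regression of the Müllerian duct, from which the oviduct forms.

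The sequences upstream of both activin subunit genes are shown because these genes were both lower in MOEHIGH and encode partners of the same dimers. Promoter windows of RefSeq on GRCm38.p6 (mm10) matched 6 of the 10 genes. Each line gives the 250 bases before the start of transcription, 5′ to 3′ on the strand of the gene, with capitals for GTCT on either strand (GTCT or AGAC, the short box bound by Smads) and for TATAAA.
Inhba, chr13:16011601-16011850, plus strand: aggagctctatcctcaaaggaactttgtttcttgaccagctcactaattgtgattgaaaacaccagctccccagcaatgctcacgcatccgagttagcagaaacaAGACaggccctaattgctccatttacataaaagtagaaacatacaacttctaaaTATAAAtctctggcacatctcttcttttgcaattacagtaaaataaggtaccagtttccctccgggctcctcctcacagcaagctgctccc
Inhbb, chr1:119422249-119422498, minus strand: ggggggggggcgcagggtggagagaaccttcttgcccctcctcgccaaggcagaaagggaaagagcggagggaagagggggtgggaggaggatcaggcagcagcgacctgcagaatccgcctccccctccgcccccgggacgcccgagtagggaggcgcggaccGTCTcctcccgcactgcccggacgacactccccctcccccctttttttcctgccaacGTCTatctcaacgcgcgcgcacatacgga
The windows differed in base composition, with 43.2% G and C upstream of Inhba and 68.0% upstream of Inhbb. The Inhba window held TATAAA 1 time, with its first base at -91 from the start, and 12.4% of 32817 promoter windows of this length held TATAAA on either strand. GTCT on either strand occurred 1 time upstream of Inhba and 2 times upstream of Inhbb, and 82.9% of all windows held it. These matches describe letters and were not measured as bound sites.

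None of the 6 tables carried its own passage as column heading. For passages 8, 9, 10, 90, 103 and 113, the headings were P113, P8, Locus, P9, P10 and P103. Groups and passages were read from the sample records, so statements on single passages rest on those records. Summed FPKM were 624733 to 683841 in MOELOW and 597161 to 770438 in MOEHIGH. Of 10 epithelial markers, the keratins Krt8, Krt18 and Krt19 were abundant, while Epcam and Cdh1 were at most at 0.0399 and 0.0821 FPKM in any library, and the claudin gene Cldn3 and the splicing regulator gene Esrp1 were listed at 0 in all 6. Markers of other cell types were also present. Summed over 10 fibroblast and stromal genes, levels were 596 to 988 FPKM in MOELOW and 22.4 to 32.7 FPKM in MOEHIGH, with 6 of 7 tested genes lower, 4 of which reached the filter through MOELOW alone. Summed over 8 smooth muscle genes, they were 7832 to 11267 FPKM in MOELOW and 70.5 to 108 FPKM in MOEHIGH, with 7 of 7 lower, 3 of them through MOELOW alone. Acta2 and Tagln, at 4395 ± 650 and 4224 ± 938 FPKM, made up most of the MOELOW sum. Smtn, at 76.5 ± 14.6 FPKM, made up most of the MOEHIGH sum. Myh11 was at 0.305 ± 0.258 FPKM in MOELOW and 0.0170 ± 0.00624 FPKM in MOEHIGH and was not tested. Of all genes tested, 32.1% were lower and 24.3% were higher in MOEHIGH. Of the stromal markers, Postn, Thy1, Fap and Lum were listed at 0 in all MOEHIGH libraries. In MOELOW, Postn was at 5.92 ± 1.99 FPKM and Thy1 at 0.601 ± 0.339 FPKM. Fap and Lum were near the floor in MOELOW too, at most at 0.142 and 0.0252 FPKM. Thy1, Fap and Lum were not tested. Col1a1 and Col3a1 were still at 17.99 ± 5.79 and 3.77 ± 1.73 FPKM in MOEHIGH. Dcn, at 8.11 ± 2.84 FPKM in MOELOW and 5.66 ± 1.32 FPKM in MOEHIGH, overlapped between groups and was not called. These lists moved in the same direction as Inhba, Inhbb, Fst, Grem1 and Id3, and their part in those differences was not tested. Other markers moved in the direction of Id2. Of 7 mesothelial genes, 5 were tested, with 3 higher and 1 lower (Wt1), and summed levels were 687 to 1047 FPKM in MOELOW and 843 to 1163 FPKM in MOEHIGH. These sums overlapped between groups and were mostly Krt19, at 850 ± 201 FPKM in MOELOW and 663 ± 165 FPKM in MOEHIGH. Upk3b rose from 2.88 ± 1.32 to 91.8 ± 6.83 FPKM, Msln from 20.0 ± 6.20 to 166 ± 44.7 FPKM and Bnc1, through MOEHIGH alone, from 0.335 ± 0.376 to 15.1 ± 1.43 FPKM, while Calb2 was listed at 0 in all libraries. Krt18 and Krt7 were also higher, while Krt8 and Krt19 were not called. Of 7 secretory genes, 2 were higher (Pax2 and Msln), 3 were lower (Wt1, Esr1 and Emx2), and Pax8 and Ovgp1 were not called. Pax2 reached the filter through MOEHIGH alone and Esr1 through MOELOW alone. The part of these markers in the difference of Id2 was not tested. In bulk RNA, fewer cells of a type and less RNA per cell cannot be told apart.

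Of the 10 genes, 8 reached a mean of 0.5 FPKM over the 6 libraries and were tested. Of these 8, 5 were lower in MOEHIGH (Inhba, Inhbb, Fst, Grem1 and Id3), 1 was higher (Id2), and Bmp4 and Id1 did not pass the test. Among all 11621 genes tested, 32.1% were lower and 24.3% were higher, 56.4% in all, at an adjusted p of 0.05 from limma. The median log2 fold change was -1.15 over the 8 genes and -0.05 over all genes tested. The groups did not overlap for 6 of the 8 genes, as for 64.0% of all genes tested. Against a 2-fold change, Fst and Id3 passed the test, as did 7.8% of all genes in the lower and 2.61% in the higher direction. Grem1 passed the filter through MOELOW alone, so a difference was built into its being tested. A log2 fold change here is MOEHIGH minus MOELOW on log2(FPKM + 1) and understates the change of low genes.

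**Figure D1:**
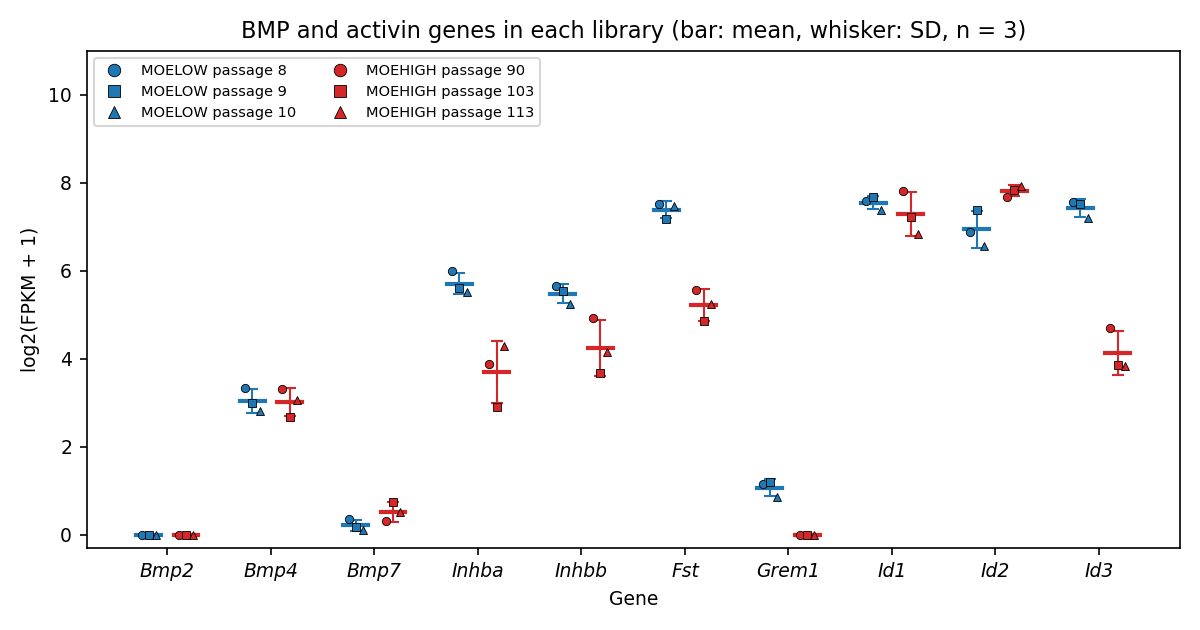
Levels of the 10 genes, as log2(FPKM + 1), in each of 6 libraries. Blue marks stand for MOELOW and red for MOEHIGH, horizontal bars for the group mean and whiskers for the SD (n = 3 passages). The groups do not overlap for Inhba, Inhbb, Fst, Grem1, Id2 and Id3, and they overlap for Bmp4, Bmp7 and Id1, while Bmp2 is at 0 in all libraries.

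Of the BMP ligands of the set, Bmp4 was the main transcript in both groups, at a level that did not differ between them beyond the spread of passages. Outside the set, Bmp6 averaged 5.59 FPKM in MOELOW and 7.29 FPKM in MOEHIGH, beside 7.32 and 7.21 FPKM for Bmp4. Gdf6 averaged 8.65 FPKM in MOELOW and was listed at 0 in MOEHIGH. Bmp4, a ligand that signals through Smad1, Smad5 and Smad9, lies on chromosome 14 of mm10 from 46383520 to 46390669. It was at 9.05, 6.95 and 5.96 FPKM in passages 8, 9 and 10 of MOELOW and at 8.86, 5.36 and 7.39 FPKM in passages 90, 103 and 113 of MOEHIGH. The libraries of the groups were interleaved, with the highest value in passage 8 and the lowest in passage 103. The log2 fold change was -0.03 (95% interval -0.48 to 0.43, adjusted p = 0.917 from limma). The interval holds changes in either direction, and the sign turned under some settings. An exon of the noncoding gene Gm15217 on the other strand overlaps Bmp4 and was at most at 0.107 FPKM.

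The other BMP ligands of the set were low or not detected. Bmp7, which encodes a BMP of many epithelia, lies on chromosome 2 from 172868012 to 172940321. It was at 0.279, 0.128 and 0.0843 FPKM in MOELOW and at 0.231, 0.677 and 0.418 FPKM in MOEHIGH, and so fell under the filter. Passage 90 lay inside the range of MOELOW and passages 103 and 113 above it. Without a filter, the log2 fold change of Bmp7 was 0.30 with adjusted p = 0.0893 from limma. Bmp2, on chromosome 2 from 133552159 to 133562885, was listed at 0 in all 6 libraries. Bmp4 made up 97.0% to 98.6% of the summed FPKM of the 3 BMP genes in MOELOW and 88.8% to 97.5% in MOEHIGH.

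Both activin subunit genes were lower in MOEHIGH. Inhba, which encodes the beta A subunit, lies on chromosome 13 of mm10 from 16011851 to 16031621. It was at 62.4, 48.1 and 44.8 FPKM in passages 8, 9 and 10 of MOELOW and at 13.8, 6.503 and 18.5 FPKM in passages 90, 103 and 113 of MOEHIGH. Every MOELOW library lay above every MOEHIGH library, and passage 103 was the lowest. Means were 51.8 ± 9.36 and 12.9 ± 6.05 FPKM (SD, n = 3), so that MOEHIGH stood at 0.250 times MOELOW, and the log2 fold change was -2.01 (95% interval -2.76 to -1.26, adjusted p = 0.00117 from limma). Noncoding genes on the other strand overlap Inhba, but none of their exons overlaps one of its exons.

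Inhbb, which encodes the beta B subunit, showed a smaller difference on the same scale. It lies on chromosome 1 from 119415465 to 119422248. It was at 49.1, 45.7 and 37.1 FPKM in MOELOW and at 29.5, 11.7 and 16.8 FPKM in MOEHIGH. The groups did not overlap, with passage 90 of MOEHIGH nearest to MOELOW and passage 103 again lowest. The level was 2.27-fold lower in MOEHIGH (log2 fold change -1.23, 95% interval -1.90 to -0.56, adjusted p = 0.00782 from limma). Neither subunit gene passed the test against a 2-fold change (adjusted p = 0.0670 for Inhba from limma). The share of Inhba in the sum of both subunits was 51.3% to 56.0% in MOELOW and 31.9%, 35.7% and 52.5% in passages 90, 103 and 113 of MOEHIGH. Passage 113 therefore lay inside the range of MOELOW, and the other MOEHIGH libraries below it. Inha, which encodes the alpha subunit that turns an activin into an inhibin, was at 3.92 ± 0.205 FPKM in MOELOW and 3.22 ± 0.630 FPKM in MOEHIGH and did not pass the test (adjusted p = 0.187 from limma).

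The antagonist of activins was the most abundant secreted factor of the set in both groups and was lower in MOEHIGH. Fst, which encodes follistatin, lies on chromosome 13 of mm10 from 114452290 to 114458951. It was at 183, 144 and 176 FPKM in passages 8, 9 and 10 of MOELOW and at 46.6, 27.9 and 37.1 FPKM in passages 90, 103 and 113 of MOEHIGH. The lowest MOELOW library lay far above the highest MOEHIGH library. Means were 168 ± 20.9 and 37.2 ± 9.33 FPKM, a 4.51-fold lower level in MOEHIGH (log2 fold change -2.16, 95% interval -2.60 to -1.73, adjusted p = 4.6e-05 from limma). In order of log2 fold change, Fst was number 495 from the lowest among 11621 genes. An exon of the noncoding gene Gm47040 on the other strand overlaps Fst, and the sources do not say whether the counting used the strand.

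Fst and the activin subunits were lower together, and their ratio was closer to 1 in MOEHIGH. The FPKM of Fst was 1.64, 1.53 and 2.15 times the sum of Inhba and Inhbb in passages 8, 9 and 10 of MOELOW, and 1.08, 1.53 and 1.05 times in passages 90, 103 and 113 of MOEHIGH. Passage 103 was level with passage 9, and the other MOEHIGH libraries lay below all of MOELOW. The mean log2 ratio of the activin subunits to Fst was -0.81 ± 0.259 in MOELOW and -0.26 ± 0.305 in MOEHIGH (SD, n = 3), and no test was made of this ratio.

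**Figure D2:**
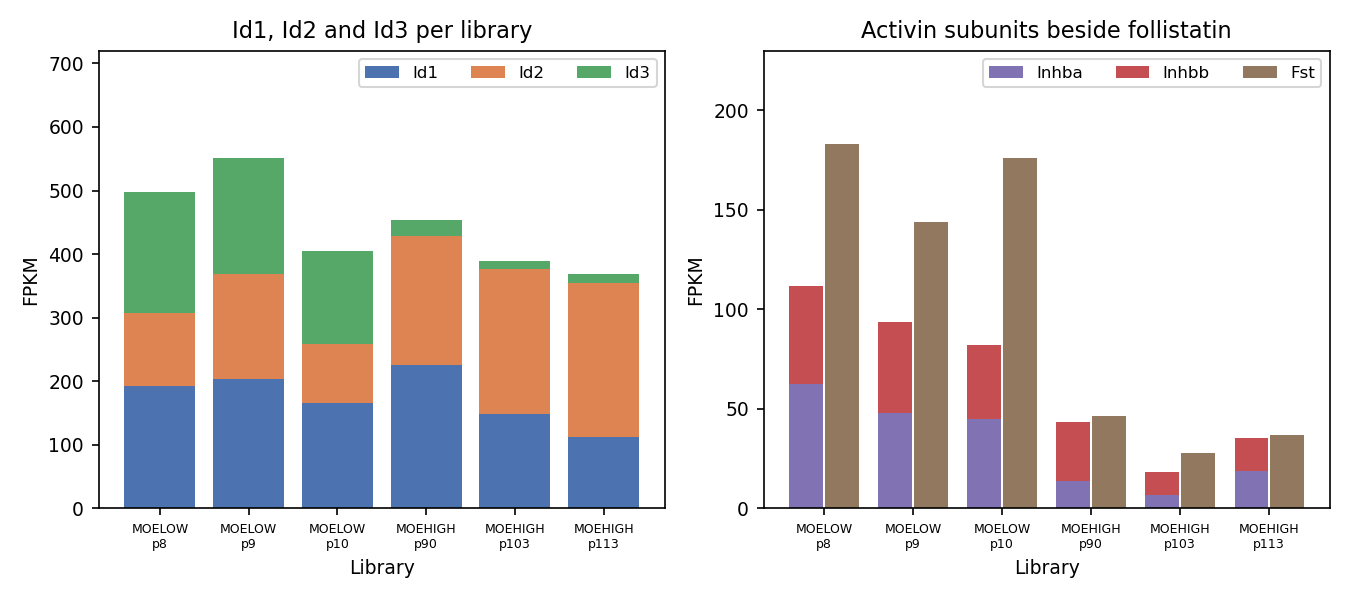
Stacked bars on the left give the FPKM of Id1, Id2 and Id3 in each of 6 libraries, and bars on the right give the stacked FPKM of Inhba and Inhbb beside Fst. The Id3 segment is 145 to 189 FPKM in MOELOW and 13.2 to 25.0 FPKM in MOEHIGH, and Fst stands above the summed activin subunits in every library.

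Grem1, which encodes a cystine knot protein that binds BMP2, BMP4 and BMP7, was detected in MOELOW only at a low level. It lies on chromosome 2 from 113746164 to 113758646. It was at 1.21, 1.30 and 0.811 FPKM in MOELOW and was listed at 0 in all 3 MOEHIGH libraries. Its fitted log2 fold change was -1.07 (adjusted p = 1.9e-04 from limma), and its size depends on the pseudocount, so no fold is given. In MOELOW, the sum of the 3 BMP genes was 5.43 to 7.68 times the level of Grem1.

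The Id genes moved apart. Id3 was 10.0-fold lower in MOEHIGH, Id2 was 1.79-fold higher, and Id1 did not pass the test. Id3 lies on chromosome 4 of mm10 from 136143497 to 136145755. It was at 189, 183 and 145 FPKM in passages 8, 9 and 10 of MOELOW and at 25.0, 13.4 and 13.2 FPKM in passages 90, 103 and 113 of MOEHIGH. All MOELOW libraries were far above all MOEHIGH libraries, and passage 90 was the highest of MOEHIGH. Means were 172 ± 23.6 and 17.2 ± 6.74 FPKM (SD, n = 3), and the log2 fold change was -3.30 (95% interval -3.85 to -2.75, adjusted p = 1.7e-05 from limma). Among all genes tested, Id3 was number 197 from the lowest log2 fold change.

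Id2, which encodes an Id protein of many epithelia and of lymphoid cells, lies on chromosome 12 from 25093799 to 25097140. It was at 116, 166 and 93.4 FPKM in MOELOW and at 204, 227 and 242 FPKM in MOEHIGH. The groups did not overlap, with passage 9 the highest of MOELOW and passage 90 the lowest of MOEHIGH. The log2 fold change was 0.87 (95% interval 0.41 to 1.34, adjusted p = 0.00670 from limma), and it did not pass the test against a 2-fold change. Id2 was number 942 from the highest log2 fold change among the 11621 genes.

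Id1, an early target of BMP receptors in many cell types, lies on chromosome 2 from 152736251 to 152737410. It was at 192, 203 and 165 FPKM in MOELOW and at 225, 149 and 112 FPKM in MOEHIGH. Passage 90 was above all of MOELOW, and passages 103 and 113 were below all of it. The log2 fold change was -0.26 (95% interval -0.80 to 0.29, adjusted p = 0.378 from limma). Without passage 90, it was -0.52 and passed the test (adjusted p = 0.0280 from limma). On chromosome 2, which also holds Bmp2, Bmp7 and Grem1, the median log2 fold change of 833 tested genes was 0.21, and 39.7% of them were higher. Over all genes tested, 24.3% were higher and 32.1% lower. Chromosome 1, with Inhbb, had a median of -0.20 and 40.2% lower, and chromosome 14, with Bmp4, had -0.32 and 45.8%. Medians were -0.05, -0.07 and -0.13 on chromosomes 4 (Id3), 12 (Id2) and 13 (Inhba and Fst).

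The make-up of the Id pool differed more than its sum. The summed FPKM of Id1, Id2 and Id3 were 497, 551 and 404 in passages 8, 9 and 10 of MOELOW and 454, 389 and 368 in passages 90, 103 and 113 of MOEHIGH, and the groups overlapped. The share of Id3 in that sum was 33.1% to 38.04% in MOELOW and 3.44% to 5.51% in MOEHIGH. The share of Id2 was 23.1% to 30.04% in MOELOW and 45.0% to 65.9% in MOEHIGH. The share of Id1 spanned 36.8% to 40.9% in MOELOW, and the wider range of 30.5% to 49.5% in MOEHIGH held it. Set against Id1 within each library, Id3 was at 0.879 to 0.987 of its level in MOELOW and at 0.0901 to 0.118 in MOEHIGH.

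The order of levels changed accordingly. In MOELOW, Id1, Id3, Fst and Id2 stood highest, and each neighbour in that order overlapped the next between libraries. Inhba and Inhbb followed and overlapped each other, and then came Bmp4, Grem1, Bmp7 and Bmp2. In MOEHIGH, Id2 and Id1 stood highest and overlapped, Fst came next, and Inhbb, Id3, Inhba and Bmp4 followed, each overlapping its neighbour. The profile nearest to that of Id3 over the 6 libraries, by Euclidean distance of centred log2(FPKM + 1) among 8325 genes that averaged 5 FPKM or more, was that of Gap43 (distance 0.325), followed by Bmper (0.426) and Tnfrsf23 (0.466). Nearest to Id2 were Magohb (0.355), Tipin (0.372) and Gnb1l (0.403).

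Of 90 other genes of the pathway, 50 were tested, with 2 of them higher in MOEHIGH, 32 lower and 16 without a call. Among all genes tested, 24.3% were higher and 32.1% were lower, the background for the lists below as well. The median log2 fold change was -0.77 over the 50 genes, beside -0.05 over all genes. Of these 50 genes, 8 reached the filter through MOELOW alone (Gdf6, Eng, Nog, Fstl3, Tll1, Smad9, Id4 and Msx2) and 1 through MOEHIGH alone (Acvr2b). A difference was built into the testing of these genes. With quantile normalization 7 of the 50 genes were higher, and the median of all genes moved to 0.10.

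The other secreted antagonists and modulators were mostly lower in MOEHIGH, with 8 of 9 tested genes lower and a median log2 fold change of -1.94. Of these 9, Nog, Fstl3 and Tll1 reached the filter through MOELOW alone, so their difference was built in, and the median is the value of Fstl3. Fstl1, which encodes a secreted glycoprotein of the follistatin family, was at 381, 292 and 361 FPKM in MOELOW and at 8.70, 9.28 and 15.5 FPKM in MOEHIGH. Its change was -4.86 on the log2 scale (95% interval -5.35 to -4.37, adjusted p = 1.2e-06 from limma). Tll1, a tolloid metalloprotease that cleaves the antagonist chordin, was at 19.6 ± 2.76 FPKM in MOELOW and at 0.0119 ± 0.0135 FPKM in MOEHIGH, a mean that was 0.00461 FPKM without passage 90. Nbl1, a DAN family antagonist, was at 68.5 ± 22.7 and 3.40 ± 2.57 FPKM, and its MOEHIGH mean was 2.02 FPKM without passage 90. Bmper, which encodes a BMP-binding protein with chordin-like repeats, fell from 43.0 ± 9.49 to 4.13 ± 1.37 FPKM.

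The remaining lower genes of that list were Bmp1, Nog, Twsg1 and Fstl3. Bmp1, a tolloid protease in spite of its name, fell from 68.5 ± 11.3 to 23.1 ± 3.44 FPKM. The noggin gene Nog, another BMP antagonist, went from 1.95 ± 0.544 to 0.181 ± 0.140 FPKM, and its MOEHIGH mean was 0.105 FPKM without passage 113. Twsg1, a modulator that binds BMPs and chordin, fell from 48.3 ± 4.33 to 23.5 ± 4.36 FPKM. Fstl3, a second follistatin-like binder of activins, was at 4.24, 2.14 and 2.41 FPKM in MOELOW and listed at 0 in all MOEHIGH libraries. The gene that did not pass the test was Dand5, at 1.32 ± 0.0323 and 1.51 ± 0.208 FPKM.

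**Figure D3:**
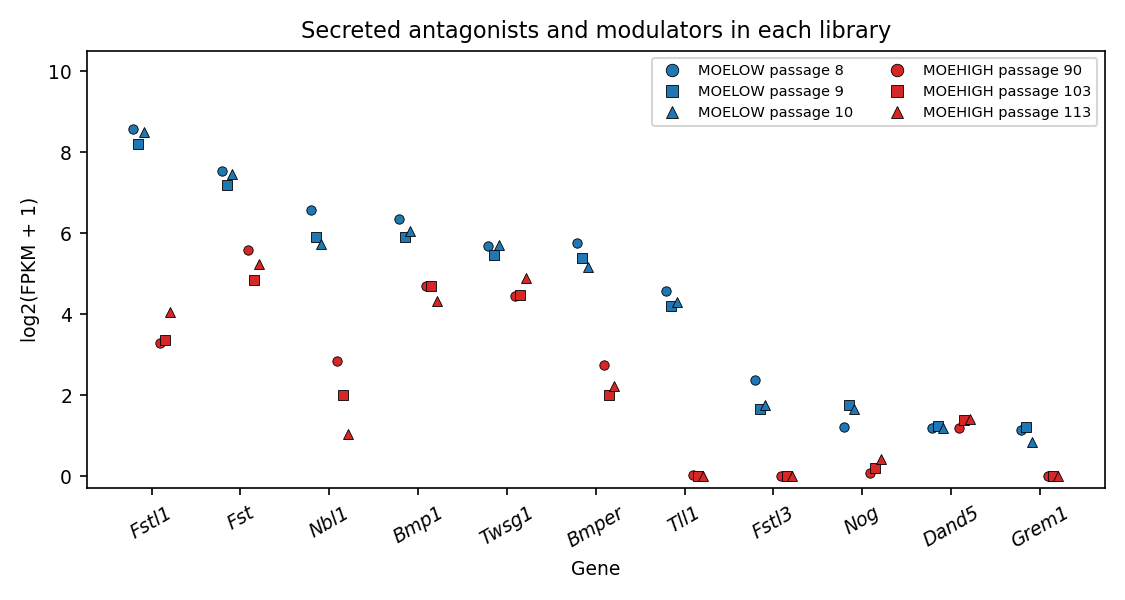
Levels of Fst, Grem1 and the 9 other tested secreted antagonists and modulators, as log2(FPKM + 1), in each library, with blue marks for MOELOW and red marks for MOEHIGH. In 10 of the 11 genes every red mark lies below every blue mark, and Dand5 is the exception. The groups did not overlap, in either direction, for 64.0% of all genes tested. Grem1, Nog, Fstl3 and Tll1 reached the filter through MOELOW alone, so a difference of their means was built into their being tested.

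Among ligands outside the set, 3 of 18 BMP and GDF genes were tested. Gdf6, a growth and differentiation factor of joint and eye formation, was at 13.3, 7.23 and 5.45 FPKM in MOELOW and listed at 0 in all MOEHIGH libraries. It reached the filter through MOELOW alone, so a difference was built into its being tested. Gdf11, which signals through activin receptors, fell from 5.59 ± 0.365 to 2.80 ± 0.313 FPKM (log2 fold change -0.80, adjusted p = 0.00062 from limma). Bmp6 was at 5.28, 4.63 and 6.87 FPKM in MOELOW and at 7.07, 7.72 and 7.09 FPKM in MOEHIGH, without overlap, and did not pass the test (adjusted p = 0.0724 from limma). It passed with median of ratios scaling, with quantile normalization and without passage 10 (adjusted p = 0.0420, 0.0147 and 0.0252 from limma).

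Of the 6 tested type I and type II receptor genes, 2 were lower, 1 was higher and 3 were not called. Of the type I receptors, Acvr1 (ALK2), which serves BMPs, was at 24.5, 24.0 and 27.3 FPKM in MOELOW and at 15.3, 11.5 and 11.9 FPKM in MOEHIGH, without overlap (log2 fold change -0.93, 95% interval -1.23 to -0.63, adjusted p = 0.000566 from limma). Acvr1b (ALK4), the main type I receptor of activin, fell from 4.90 ± 0.761 to 1.46 ± 0.546 FPKM. Bmpr1a (ALK3), a BMP receptor, was at 22.1 ± 1.82 FPKM in MOELOW and at 12.9, 15.2 and 24.9 FPKM in passages 90, 103 and 113, and did not pass the test (adjusted p = 0.198 from limma). Passage 113 alone lay above MOELOW, and without it the log2 fold change was -0.62 with adjusted p = 0.00268 from limma.

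Passage 113 also stood apart for the type II receptor gene Bmpr2, at 5.18, 4.23 and 6.78 FPKM in MOELOW and at 1.66, 2.21 and 7.18 FPKM in MOEHIGH. Bmpr2 did not pass the test (adjusted p = 0.215 from limma), and without passage 113 it was lower (log2 fold change -1.11, adjusted p = 0.00218 from limma). The type II gene Acvr2b, at 0.444 ± 0.270 and 1.35 ± 0.198 FPKM, was higher in MOEHIGH (adjusted p = 0.00470 from limma), and its MOELOW mean was 0.291 FPKM without passage 10. Acvr2b reached the filter through MOEHIGH alone, so a difference was built into its being tested. Among the co-receptors, Rgma, which encodes a membrane-anchored BMP co-receptor, fell from 7.86 ± 1.74 to 1.07 ± 0.215 FPKM and its relative Rgmb from 6.29 ± 0.779 to 3.13 ± 0.361 FPKM. The endoglin gene Eng went from 2.18 ± 1.51 to 0.467 ± 0.184 FPKM, with a MOELOW mean of 1.31 FPKM without passage 8. It lost its call without passage 103 (adjusted p = 0.0574 from limma) and with quantile normalization (log2 fold change -0.51, adjusted p = 0.185 from limma). Eng reached the filter through MOELOW alone, so a difference was built in here too.

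Most receptor-regulated Smad genes did not pass the test, whereas inhibitory Smads and other regulators were mostly lower. Smad1 and Smad5, which carry BMP signals, were at 13.9 ± 0.577 and 9.46 ± 1.11 FPKM in MOELOW and at 14.4 ± 2.67 and 9.58 ± 2.77 FPKM in MOEHIGH. Their log2 fold changes had 95% intervals of -0.28 to 0.35 and -0.44 to 0.42. Smad2 and the common Smad4 did not pass the test either (adjusted p = 0.655 and 0.260 from limma), and both were lower without passage 113 (adjusted p = 0.0258 and 0.0181 from limma). Smad3, which carries activin signals, fell from 37.96 ± 3.25 to 22.5 ± 3.04 FPKM (log2 fold change -0.74, adjusted p = 0.00166 from limma). Smad9, a further BMP Smad, went from 1.14 ± 0.506 to 0.0827 ± 0.0270 FPKM, and lost its call with quantile normalization (adjusted p = 0.148 from limma). Smad9 reached the filter through MOELOW alone, so a difference was built into its being tested.

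Of 10 inhibitory Smads and regulators of Smads, 8 were lower, 1 was higher and 1 was not called. Of the lower genes, Tgif1 lost its call without any 1 of passages 8, 9 and 10 (adjusted p = 0.0526, 0.0804 and 0.0574 from limma) and with median of ratios scaling (0.0503), and Smurf1 lost it without passage 8 (adjusted p = 0.0565 from limma). The inhibitory Smad6 fell from 16.0 ± 0.898 to 9.73 ± 0.477 FPKM and Smad7 from 20.2 ± 1.81 to 12.03 ± 1.82 FPKM. Pmepa1, a membrane protein that restrains Smad2 and Smad3, fell from 59.2 ± 9.20 to 16.1 ± 5.73 FPKM. The ubiquitin ligase gene Smurf2 fell from 30.5 ± 0.564 to 11.8 ± 3.48 FPKM, and the co-repressor genes Skil and Ski fell from 16.6 ± 1.33 to 6.21 ± 2.21 and from 35.7 ± 1.30 to 19.9 ± 1.16 FPKM. Nedd4l, another ubiquitin ligase of this pathway, rose from 5.20 ± 0.466 to 9.41 ± 0.925 FPKM.

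Other genes known as targets of BMP Smads were lower in 6 of 8 tested cases, of which Id4 and Msx2 reached the filter through MOELOW alone. Msx1 lost its call with quantile normalization (log2 fold change -0.01, adjusted p = 0.943 from limma) and Gata6 without passage 8 (adjusted p = 0.0699 from limma). Id4, the remaining Id gene, was at 5.21, 3.41 and 2.63 FPKM in MOELOW and at 0.0325 FPKM in passage 90, and was listed at 0 in passages 103 and 113. The transcriptional repressor gene Hey1, also a Notch target, fell from 5.72 ± 1.48 to 0.629 ± 0.175 FPKM. Atoh8, a basic helix-loop-helix gene, fell from 14.8 ± 5.48 to 3.73 ± 0.410 FPKM. The homeobox gene Msx2 was at 2.43, 2.00 and 2.78 FPKM in MOELOW and listed at 0 in MOEHIGH. Of the E protein genes, whose products pair with Id proteins, Tcf4 fell from 7.80 ± 1.56 to 1.60 ± 0.818 FPKM. Tcf3 was at 36.7 ± 3.26 and 40.1 ± 1.81 FPKM and did not pass the test (adjusted p = 0.318 from limma). Tcf12, at 30.9 ± 3.02 and 22.3 ± 6.31 FPKM, did not pass it either (adjusted p = 0.0553 from limma). Tcf12 was lower with upper quartile scaling and without passage 113 (adjusted p = 0.0284 and 0.00114 from limma).

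**Figure D4:**
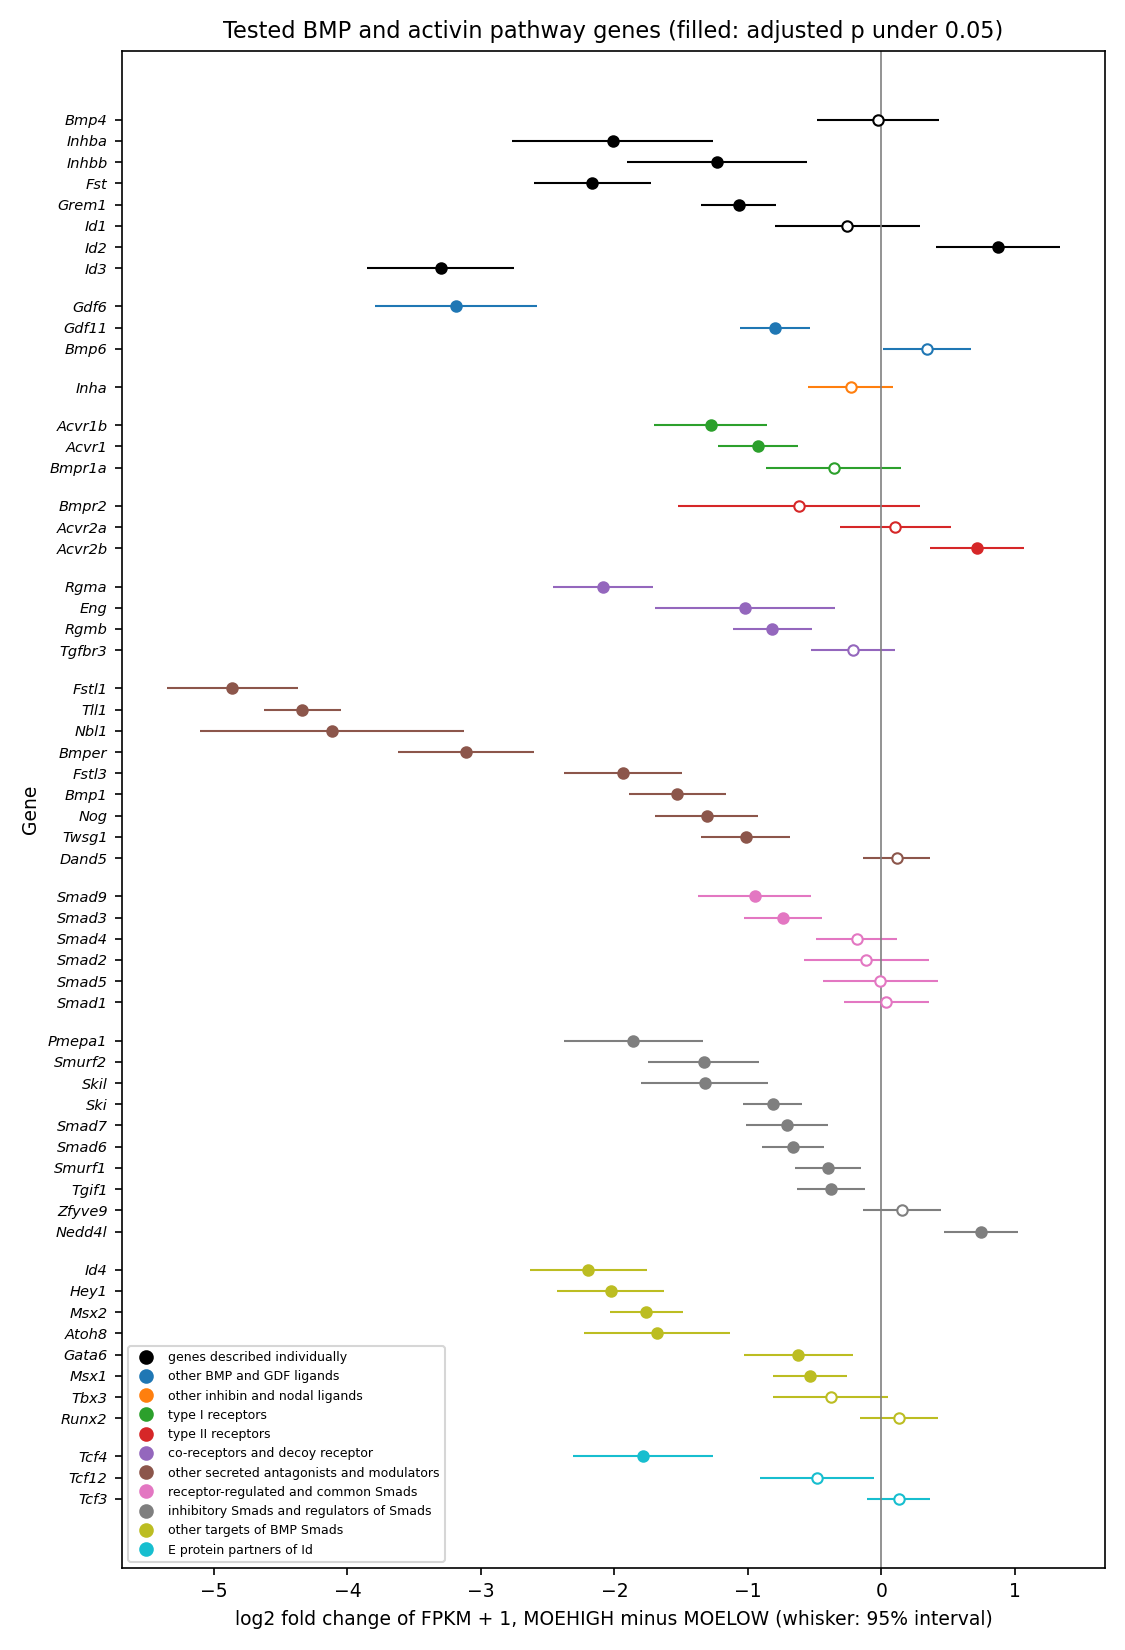
Log2 fold changes, MOEHIGH minus MOELOW on log2(FPKM + 1), of the 8 tested genes of the set and 50 other tested pathway genes, grouped by role, with 95% intervals as whiskers. Filled marks passed the test at an adjusted p of 0.05. Most marks lie left of 0, and Id2, Acvr2b and Nedd4l are the filled marks to its right. Acvr2b reached the filter through MOEHIGH alone.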

How the data were processed

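RNA of 6 libraries was sequenced by the authors after removal of ribosomal RNA, from strand-specific libraries. For the alignment to mm10 the authors used TopHat2 2.0.8b, and they then ran Cufflinks and Cuffdiff 2.1.1 with known UCSC genes. The deposited values are FPKM, 1 table of 23141 entries per library, with no counts. For 236 symbols with several entries, that with the highest mean was kept. Absolute depth is unknown. From genes at the lowest values, 1 fragment was worth -0.16 to -0.36 (log2) relative to passage 8 in 4 libraries, and no step could be read in passage 103.

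The test of MOEHIGH against MOELOW was that of limma 3.58.1 (R 4.3.3) on log2(FPKM + 1), allowing the variance to follow expression and using no block. It covered the 11621 genes averaging 0.5 FPKM or more, with Benjamini-Hochberg adjustment and a threshold of 0.05. The steps were tested on simulated data. Python 3.11.15, numpy 2.4.6 and pandas 2.3.3 were used. Positions are from GENCODE M21 (GRCm38). The genes and lists were chosen with earlier results of these data known. Named were the 10 genes, receptors and Smads averaging 5 FPKM or more, up to 4 called genes per list and direction averaging 1 FPKM or more, and the 3 profiles nearest to those with the largest rise and fall. Acvr2b, Bmp1, Bmp6, Bmpr2, Dand5, Fstl3, Gata6, Inha, Msx1, Nog, Smad9, Smurf1, Tcf3, Tcf12, Tgif1 and Twsg1 were named after their values were seen. Alternatives were 4 scalings, pseudocounts of 0.1 and 0.01, other filters, no variance trend, an adjusted p of 0.01, a 2-fold test, a block for the replicate number, and fits on all but 1 library.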

Additional observations from a re-analysis of the deposited data

How the results depend on the processing

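Inhba, Inhbb, Fst and Id3 were lower and Id2 was higher in 18 of 18 alternatives, and Grem1 was lower in 17 of 17 (-6.78 to -0.68 on the log2 scale, which depends on the pseudocount), since it did not reach a mean of 5 FPKM. They passed the threshold in all of these except the test against a 2-fold change, where 0 of the set were higher and 2 (Fst and Id3) were lower, 0 and 13 other pathway genes were, and 303 and 907 of all genes were. For the direction of these genes, only the scalings were a test. The settings of filter, variance, threshold and block left the log2 fold change as it was. As the groups did not overlap, another pseudocount or leaving out 1 library could not turn its sign. Leaving out 1 library gave 1 higher and 5 to 6 lower genes of the set, 2 to 3 and 29 to 37 other pathway genes, 2203 to 3335 and 3163 to 4314 of all genes, and 0.40 to 0.72 for the difference in log2 ratio of the activin subunits to Fst (0.55 with all libraries). With a mean of at least 5 FPKM, for which fewer genes are tested, 1 other pathway gene was higher and 18 were lower, and 2350 of all genes were lower. With quantile normalization 7 other pathway genes were higher, and 56.7% of all calls were higher, beside 43.1%. The log2 fold change of Bmp4 was -0.17 to 0.15 on leaving out 1 library, and turned to 0.031 with median of ratios scaling, 0.13 with quantile normalization, 0.12 without passage 8 and 0.15 without passage 103. The replicate numbers did not pair the libraries (correlations of deviations of -0.02, -0.15 and 0.12), and 1 of the 3 MOELOW libraries correlated best with its own number. With the number as a replicate block, 1 gene of the set was higher and 5 were lower, and among other pathway genes Bmpr2 and Tcf12 were called in addition (adjusted p = 0.0428 and 0.0137 from limma). The cause of these changes was not tested. FPKM without counts give no interval for counting error.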
